A study of Mus musculus with 2 samples.

Results

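The cadherins and nonclustered protocadherins were followed through the cells of the newborn mouse forebrain, with and without a neural deletion of STING. Members were taken by symbol alone, as every gene named Cdh or Pcdh with only a number after it (an x after the number was allowed for protocadherins), which gave 35 of the 27998 genes in the files. Cadherins are single-pass membrane proteins that bind the same or a related cadherin on a neighbouring cell in the presence of calcium, and most of the classical members hold the actin skeleton through catenins. The type I member Cdh2 (N-cadherin) keeps radial glia joined at the ventricular surface, type II members are known for sorting neurons into layers and nuclei, and nonclustered protocadherins adhere more weakly and take part in axon growth and synapse formation.

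Single-cell RNA sequencing on the 10x Genomics platform gave 1 library from wild type mice (WT) and 1 from STINGf/f;Nestin-Cre mice (cKO), both of the C57BL/6 strain and both of telencephalic tissue at postnatal day 0. Each library is described as cerebral cortex in the study, which in places calls the controls STING fl/fl, that is, mice with the floxed allele and no Cre, where the labels say WT. In the cKO mice, Cre under the Nestin promoter removes floxed STING (gene symbol Tmem173) in the neural lineage, and endothelial cells, mural cells and microglia arise outside that lineage. The number of animals in a library is not given in the sources used here. With 1 library a genotype there was no test of genotype, and each interval below is a 95% interval that covers counting error only.

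After filtering, 6601 WT and 5974 cKO cells were kept, with 55820331 and 55068000 unique molecular identifiers (UMIs, each counting 1 captured transcript molecule) and medians of 6552 and 7537 UMIs a cell. There were 8 cell barcodes shared by both sets of kept cells. Tmem173 had 126 UMIs in WT and 18 in cKO cells, of which 60 and 12 lay in endothelial-like, 26 and 2 in mural-like and 23 and 3 in microglia-like cells, that is, mostly outside the neural lineage. Xist, made from the inactive X chromosome of females, had 10 and 71370 UMIs, and the Y-linked Eif2s3y 4881 and 0, so the libraries differed in sex as well as in genotype, and the part of either in a difference between them cannot be told apart. Clusters were named from marker genes alone and so carry the ending -like. The 10 classes compared each held at least 20 cells in either library, from 2463 WT and 2611 cKO projection neuron-like cells to 66 and 78 Cajal-Retzius-like, 93 and 40 mural-like and 71 and 36 microglia-like cells. Clusters of 764 WT and 750 cKO cells stayed unnamed, and 44 WT and 12 cKO ependymal-like cells were too few to compare. Levels are summed UMIs of a class per 1000000 UMIs of that class (CPM), and are compared for 1 gene between classes, not between genes. A member called highest in a class was so among the 10 classes compared, and a subclass or cluster within a class could be higher. Unnamed clusters could be higher too, as for Pcdh8, at 314 CPM in WT and 594 CPM in cKO cells of 1 such cluster, and for Cdh2, at 735 CPM in its WT cells.

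The promoters of 4 protocadherins that differed between the libraries in at least 1 class, and for which an entry was held, are shown, and they differ in their core elements. RefSeq promoters (build GRCm38.p6, from 250 bases before to 50 bases after the start) were matched for 22 members. Pcdh15 (chr10:73821617-73821916, plus strand) and Pcdh8 (chr14:79771263-79771562, minus strand) had a TATA box, Pcdh19 (chrX:133688944-133689243, minus strand) a GC box, and Pcdh9 (chr14:93890630-93890929, minus strand) none of the 3 motifs searched. Each sequence is written 5′ to 3′ along its gene, and capitals mark the E-box CANNTG, the TATA box, spelled TATAAA, or the GC box, spelled CCGCCC, on either strand.
Pcdh15: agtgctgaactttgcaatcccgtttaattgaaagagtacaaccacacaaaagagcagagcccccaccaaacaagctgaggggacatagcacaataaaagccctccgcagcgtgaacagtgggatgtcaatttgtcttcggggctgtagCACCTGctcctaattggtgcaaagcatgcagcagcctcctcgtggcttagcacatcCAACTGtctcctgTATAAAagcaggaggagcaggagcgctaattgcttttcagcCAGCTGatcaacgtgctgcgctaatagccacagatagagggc
Pcdh8: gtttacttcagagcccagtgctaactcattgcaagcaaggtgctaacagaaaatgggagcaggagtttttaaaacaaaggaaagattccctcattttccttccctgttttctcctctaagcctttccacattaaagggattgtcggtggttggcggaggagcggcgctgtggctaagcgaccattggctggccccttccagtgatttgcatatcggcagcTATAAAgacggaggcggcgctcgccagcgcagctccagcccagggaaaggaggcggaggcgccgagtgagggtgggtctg
Pcdh19: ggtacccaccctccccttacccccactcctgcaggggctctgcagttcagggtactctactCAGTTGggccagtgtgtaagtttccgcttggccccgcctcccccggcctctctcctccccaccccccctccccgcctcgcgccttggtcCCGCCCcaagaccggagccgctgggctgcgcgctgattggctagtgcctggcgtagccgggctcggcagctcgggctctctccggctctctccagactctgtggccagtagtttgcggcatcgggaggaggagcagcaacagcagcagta
Pcdh9: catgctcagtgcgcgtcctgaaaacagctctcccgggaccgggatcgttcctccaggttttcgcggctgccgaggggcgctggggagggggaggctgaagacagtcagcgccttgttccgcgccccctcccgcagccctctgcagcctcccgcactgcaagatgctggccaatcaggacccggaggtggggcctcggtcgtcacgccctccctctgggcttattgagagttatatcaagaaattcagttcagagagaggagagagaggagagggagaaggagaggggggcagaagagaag
The TATA box of Pcdh15 began 33 bases before the start and that of Pcdh8 30 bases before it. The 22 members had 25 entries, and a member counted when any of its entries held a motif, whereas the background counts single promoters. TATAAA was found in 2 of the 22 members, against 13.6% of all 32544 promoters. CCGCCC was present in 9 of 22, against 35.9% of all, and CANNTG in 13 of 22, against 72.3%. These matches describe letters in a window and were not tested as binding sites.

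Of the 35 members, 26 had at least 200 UMIs over the kept cells of both libraries, and these are described one by one. Both Cdh1 (E-cadherin, of epithelia) and Cdh16 had 0 UMIs. A count of 0 allows up to 3 counts, here a level of 0.0537 CPM for the WT and 0.0545 CPM for the cKO library. The other 7 had between 4 and 127 UMIs: Cdh3, Cdh17, Cdh19, Cdh23, Cdh26, Cdh18 and Cdh6. Among them Cdh26 had 17 of its 20 WT UMIs and 3 of its 5 cKO UMIs in ependymal-like cells. For 20 of the 26 members the class with the highest level was the same in both libraries, and for 13 of those 20 its interval lay clear of the next class in each library. All 35 were found in the GENCODE M21 annotation, with 8 on chromosome 8, 5 each on chromosomes 14 and 15, 3 on chromosome 18 and 2 on the X chromosome (Pcdh11x and Pcdh19). Exons of Pcdh7, Pcdh8, Pcdh10, Pcdh19, Cdh8 and Cdh9 overlap a gene on the opposite strand, where Cell Ranger counts only reads of the gene's own strand, and those of Cdh12 a gene on the same strand, which leaves Cdh12 counts less certain.

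**Figure D1:**
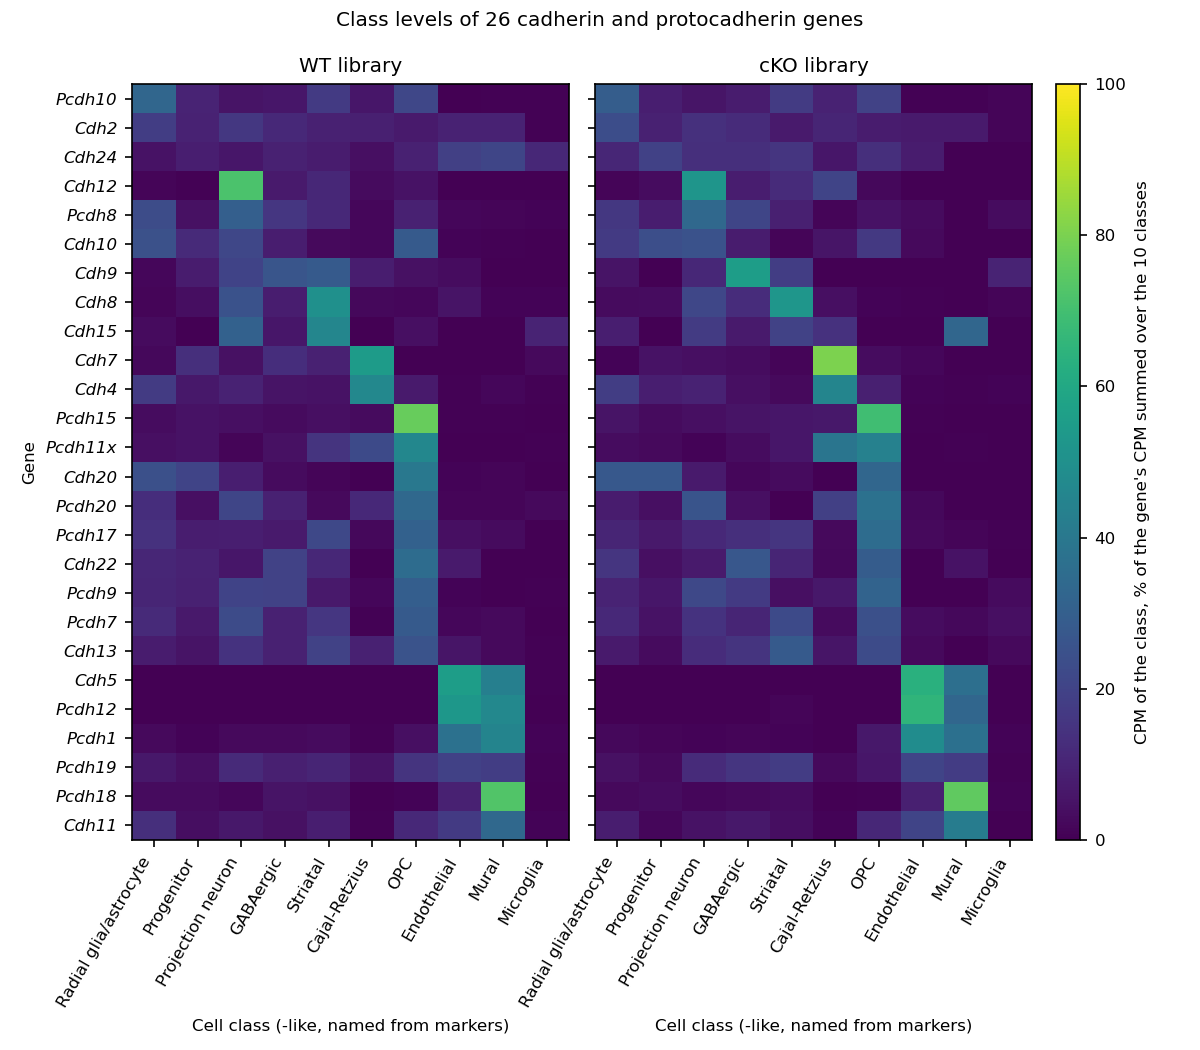
Heat map of the 26 members with at least 200 UMIs (vertical axis) over 10 cell classes named from markers (horizontal axis), with WT and cKO in separate panels; colour gives each class's percent of the gene's CPM summed over the 10 classes. Most members keep the same leading class in both panels, such as endothelial-like cells for Cdh5 and Cajal-Retzius-like cells for Cdh4.

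Of the type I cadherins, Cdh2 was detected in every neural and vascular class, and was highest in radial glia- or astrocyte-like cells. Its level there was 327 CPM (311 to 343) in WT and 421 CPM (402 to 441) in cKO cells, against 290 and 247 CPM in projection neuron-like cells and 14.1 and 24.8 CPM in microglia-like cells. Cells were also compared after each was thinned to 2000 UMIs, with shallower cells left out. A Cdh2 UMI was then seen in 45.9% of WT and 55.6% of cKO radial glia- or astrocyte-like cells (81.1% and 90.5% without thinning, at median depths of 6654 and 8338 UMIs). In microglia-like cells, taken as the background from free RNA, the shares were 3.57% of 56 and 3.03% of 33 cells (11.3% and 13.9% without thinning, at median depths of 8956 and 11953.5 UMIs). Cdh4 (R-cadherin) was highest in Cajal-Retzius-like cells, the reelin-secreting neurons of the cortical surface. It reached 353 CPM (317 to 392) there in WT and 467 CPM (431 to 505) in cKO cells, followed by radial glia- or astrocyte-like cells at 132 and 187 CPM. Cdh15 (M-cadherin, known from muscle) was low throughout, at 4.35 and 0.935 CPM in projection neuron-like cells.

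Several members were highest in vascular cells. Cdh5 (VE-cadherin, of endothelial junctions) was at 333 CPM (311 to 356) in WT and 501 CPM (459 to 545) in cKO endothelial-like cells, and had no more than 3 UMIs in microglia-like cells of either library. After thinning, 39.8% of 118 WT and 62.3% of 53 cKO endothelial-like cells had a Cdh5 UMI; microglia-like cells had none in 56 WT and 33 cKO cells. Without thinning the endothelial-like shares were 88.1% and 82.0%. By cluster, Cdh5 was at 343 and 547 CPM in the largest endothelial-like one, of 87 WT and 49 cKO cells. A mixed cluster of 32 WT and 7 cKO deep cells, described below, had 325 and 466 CPM. Cdh5 was also found in mural-like cells (259 and 287 CPM), where 1 cluster of 56 WT and 12 cKO cells that also carried endothelial genes held 399 of 400 WT and 159 of 162 cKO UMIs. Pcdh12, a protocadherin of endothelium, followed the same 2 classes. Pcdh18 was highest in mural-like cells, at 163 CPM (144 to 185) and 197 CPM (162 to 237). It was at 141 and 115 CPM in the mural-like cluster with endothelial genes. In the other, of 37 WT and 28 cKO cells, it was at 348 and 370 CPM, so the makeup of the class differed between the libraries. That other cluster had a higher mean marker score for another class (4.93) than for mural cells (4.23), so it was mixed too. Pcdh1 was highest in both vascular classes, with 151 and 230 CPM in endothelial-like and 182 and 175 CPM in mural-like cells. It was at 149 and 254 CPM in the largest endothelial-like cluster and at 150 and 186 CPM in the mixed one of deep cells. Cdh11 (OB-cadherin, of mesenchyme) reached 108 CPM (91.8 to 125) in WT and 85.1 CPM (62.7 to 113) in cKO mural-like cells. It was at 105 and 65.2 CPM in the mural-like cluster with endothelial genes and at 126 and 127 CPM in the other. The 7 fibroblast markers summed to 689 CPM in WT and 765 CPM in cKO mural-like cells, and their part in these levels was not tested.

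A further group of protocadherins was highest in WT, among the 10 classes compared, in cells like oligodendrocyte precursors (OPC-like): Pcdh15, Pcdh11x, Pcdh17, Pcdh9, Pcdh7 and Pcdh20. Pcdh15, known from the tip links of hair cells, was mostly found there, with 253 CPM (230 to 277) in WT and 159 CPM (137 to 183) in cKO OPC-like cells and 15.8 CPM or less in each other compared class. After thinning, 42.3% of 298 WT and 27.0% of 178 cKO OPC-like cells had a Pcdh15 UMI and no microglia-like cell did; without thinning the OPC-like shares were 63.9% and 52.2%. The OPC-like class joined a main cluster of 287 WT and 145 cKO cells, at 291 and 207 CPM of Pcdh15, with a cluster of 37 and 39 cells at 4.25 and 10.2 CPM, so that its makeup differed between the libraries. The smaller cluster had a higher mean marker score for another class (1.19) than for OPC (1.09), so it was mixed. Pcdh11x was at 192 and 114 CPM in OPC-like cells and next highest in Cajal-Retzius-like cells, at 92.5 and 100 CPM. Pcdh17 was at 175 and 169 CPM in OPC-like cells and at 122 and 74.3 CPM in striatal neuron-like cells. Parts of the projection neuron-like class stood above the OPC-like class in WT for the others. Layer 6-like cells had Pcdh9 at 229 CPM (206 to 254) and Pcdh7 at 109 CPM (93.4 to 127). A newborn neuron-like cluster of 32 WT cells had Pcdh20 at 58.4 CPM. Pcdh10 was highest in radial glia- or astrocyte-like cells, at 253 CPM (239 to 268) and 232 CPM (218 to 246), with overlapping intervals between the libraries. A thinned radial glia- or astrocyte-like cell held a mean of 1.92 different members in WT and 1.77 in cKO, an OPC-like cell 2.78 and 2.28, and a microglia-like cell 0.107 and 0.242.

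The remaining members were highest in neuronal classes in some cases and outside them in others. Pcdh8, an activity-regulated protocadherin also named arcadlin, was highest in projection neuron-like cells, at 97.2 CPM (93.2 to 101) in WT and 140 CPM (136 to 145) in cKO. Cdh8, a type II cadherin, was highest in striatal neuron-like cells, at 73.4 CPM (64.2 to 83.6) and 85.4 CPM (75.1 to 96.8). Cdh12 was found mainly in projection neuron-like cells, at 24.4 and 19.1 CPM, and there mostly in the upper-layer-like cells, at 32.8 and 29.0 CPM. Cdh13, a cadherin held to the membrane by a lipid anchor, was at 96.5 and 116 CPM in OPC-like cells and 73.7 and 144 CPM in striatal neuron-like cells. Cdh7, of type II, was highest in Cajal-Retzius-like cells, at 31.2 and 39.2 CPM. Cdh10 was spread over OPC-like, radial glia- or astrocyte-like and projection neuron-like cells, at 53.9, 47.0 and 40.3 CPM in WT. Pcdh19, the X-linked gene of a human epilepsy, was highest among the classes compared in endothelial-like cells, at 47.0 and 65.7 CPM. Its level was 80.0 and 85.3 CPM over the unnamed cells. A named subclass, the interneuron-like cells with markers of the medial ganglionic eminence described below, also stood above endothelial-like cells in both libraries. The remaining type II members described were low in every compared class, with highest WT levels of 19.3 CPM for Cdh20 and 11.4 CPM for Cdh22, both in OPC-like cells, and both Cdh9 and Cdh24 stayed under 12 CPM in each library.

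**Figure D2:**
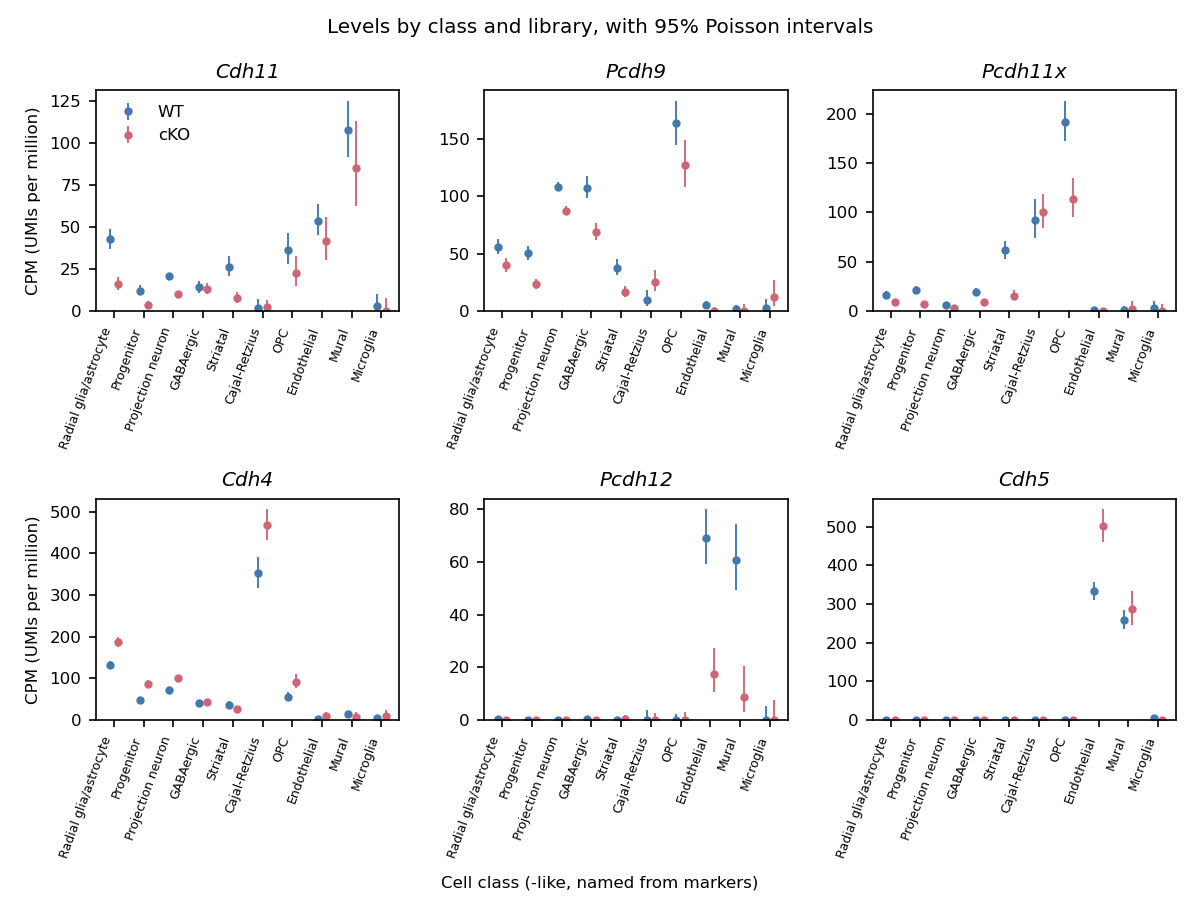
CPM (vertical axes, linear, from 0) of Cdh11, Pcdh9, Pcdh11x, Cdh4, Pcdh12 and Cdh5 in 10 cell classes named from markers (horizontal axis); points are WT and cKO libraries and bars are 95% Poisson intervals of the counts. Cdh5 is at 333 and 501 CPM in endothelial-like cells, and Pcdh12 is at 69.0 CPM in WT against 17.6 CPM in cKO endothelial-like cells.

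For the comparison of cKO with WT, the log2 ratio of CPM was taken for each gene with at least 50 UMIs in a class and centred on the median ratio of all such genes in that class. A member was counted when it lay at least 2-fold from that median. Over the 9 classes with a measured member, this held for 23 of 128 pairs of a member and a class (18.0%), against 15.7% of all pairs of a gene and a class. The members' share was thus near that of other genes. Of the 23, 8 were higher and 15 lower in cKO cells, where 5.17% of all pairs were higher and 10.6% lower. CPM intervals of the libraries also lay apart for 22 of the 128 pairs, where they did for 15% of all pairs of a gene and a class, and overlapped for Cdh6 in projection neuron-like cells. The median centred log2 ratio over the 128 pairs was -0.07. Over all kept cells together, 3 of 28 members passed the same limit, where 19.2% of all genes did: Cdh15, Cdh6 and Pcdh12.

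**Figure D3:**
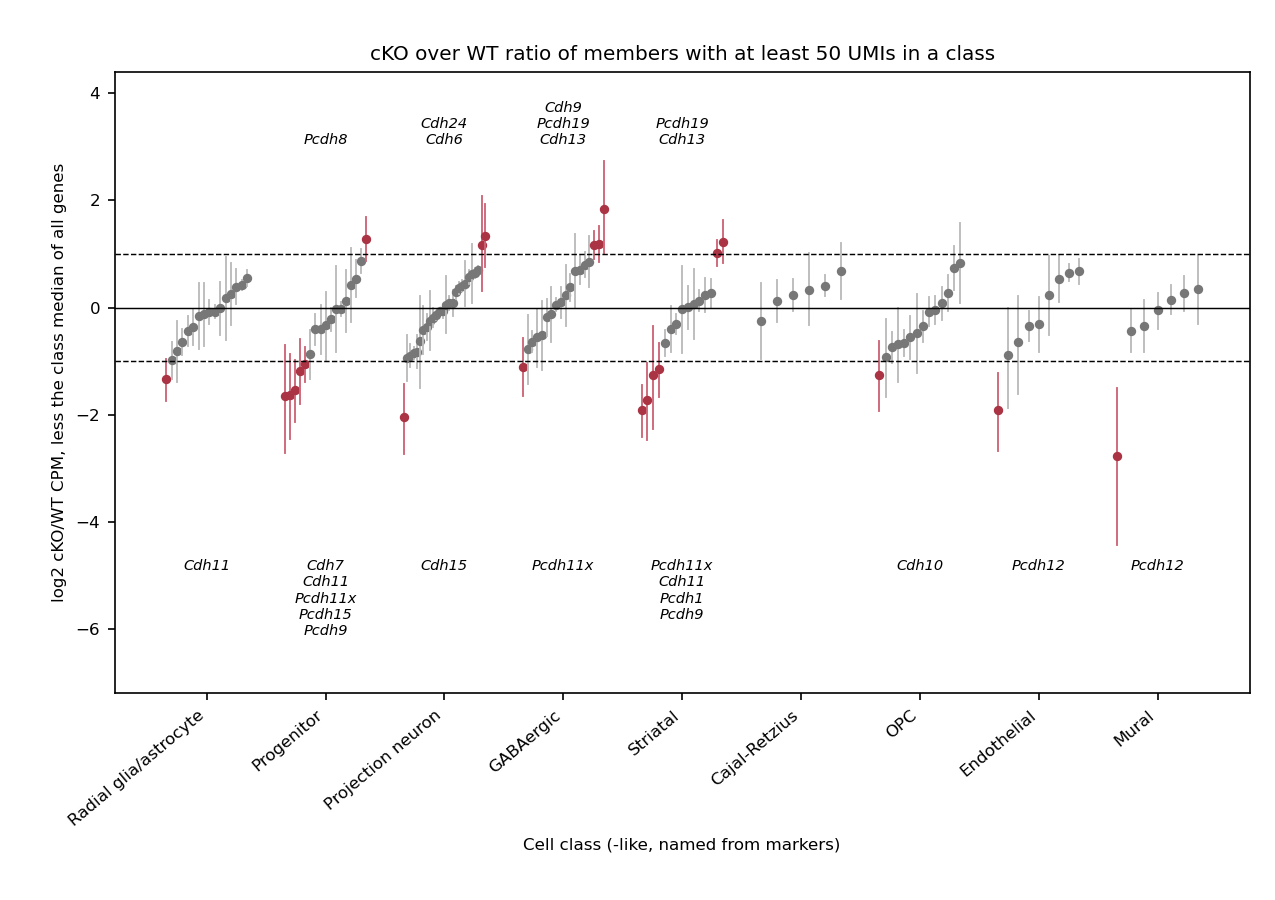
Log2 ratio of CPM, cKO over WT, centred on the median gene of each class (vertical axis), for each member with at least 50 UMIs in 9 cell classes named from markers (horizontal axis); red points lie at least 2-fold from the median and are named. The 23 red points include 6 in progenitor-like and 6 in striatal neuron-like cells and none in Cajal-Retzius-like cells.

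Progenitor-like cells, which joined 359 WT and 232 cKO cycling cells with 141 and 190 cells like intermediate progenitors, had 6 of 17 members past 2-fold (35.3%), against 14.7% of all genes. There 1 was higher and 5 were lower in cKO cells, where 4.69% and 9.96% of all genes were. Over the other settings the count of members past 2-fold in this class ran from 2, with at least 200 UMIs required, to 7, and was 3 without scaling of genes within each library. Pcdh8 had 74 UMIs in WT and 165 in cKO progenitor-like cells, or 13.9 and 33.0 CPM, a centred log2 ratio of 1.28 (0.87 to 1.69). Pcdh11x had 111 and 35 UMIs, or 20.9 and 7.0 CPM, a ratio of -1.54 (-2.14 to -0.99). Cdh11 had 64 and 19 UMIs, or 12.1 and 3.80 CPM, a ratio of -1.63 (-2.45 to -0.87). Both were low genes in this class next to their leading ones, the OPC-like cells for Pcdh11x and the mural-like cells for Cdh11. Pcdh9 had 268 and 118 UMIs, or 50.5 and 23.6 CPM, a ratio of -1.06 (-1.39 to -0.75). Pcdh15 had 84 and 34 UMIs, or 15.8 and 6.80 CPM, a ratio of -1.18 (-1.80 to -0.59), but 72 and 19 of these UMIs lay in 1 small cycling cluster with OPC genes, and the main cycling cluster went the other way, with 10 and 13 UMIs, or 2.59 and 4.07 CPM. The last was Cdh7, with 41 and 12 UMIs, or 7.72 and 2.40 CPM, a ratio of -1.65 (-2.72 to -0.70). The share of thinned progenitor-like cells with a Pcdh8 UMI was 2.86% in WT and 6.75% in cKO (11.6% and 22.5% without thinning); microglia-like cells gave 1.79% and 6.06%, so that this share did not stand clear of background.

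The makeup of the progenitor-like class moved with these values. The cycling cluster with OPC genes held 27 WT and 9 cKO cells, with 53 of the 111 WT and 16 of the 35 cKO UMIs of Pcdh11x (12.7 and 4.69 CPM in the main cycling cluster), and the 8 OPC markers summed to 890 CPM in WT and 309 CPM in cKO progenitor-like cells, and the 12 radial glia or astrocyte markers to 4564 and 2442 CPM. Their part in the result was not tested. With clusters weighted alike in both libraries, a setting added after the data were seen, Pcdh9 stood at -0.84 and Pcdh15 at -0.60, both within 2-fold, while Pcdh11x was at -1.13, Cdh11 at -1.54, Cdh7 at -1.60 and Pcdh8 at 1.11.

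Along the projection neuron lineage, Pcdh8 and Cdh4 were higher in cKO cells at several stages. In cells like intermediate progenitors Pcdh8 was at 16.0 CPM in WT and 46.0 CPM in cKO, a centred log2 ratio of 1.49 (0.75 to 2.30). Thinned cells of this kind with a Pcdh8 UMI made up 3.68% in WT and 9.09% in cKO (9.93% and 26.3% without thinning), with intervals that overlapped those of microglia-like cells (1.79% and 6.06%). In newborn neuron-like cells it was at 110 and 191 CPM (0.88, 0.75 to 1.02), and in upper-layer-like cells at 99.5 and 142 CPM (0.69, 0.58 to 0.79). The makeup of the cells like intermediate progenitors differed between the libraries: a cluster of 61 WT and 55 cKO cells had Pcdh8 at 8.40 and 20.3 CPM, and a cluster of 68 and 121 cells at 24.3 and 61.6 CPM. Among marker lists in these cells, the 8 cycling markers summed to 490 CPM in WT and 170 CPM in cKO, the 12 radial glia or astrocyte markers to 1117 and 569 CPM and the 8 OPC markers to 318 and 111 CPM, and their part in the results for Pcdh8 and Cdh4 was not tested. Layer 6-like cells had 18.9 and 20.3 CPM, a ratio of 0.18 (-0.51 to 0.89). Cdh4 was at 57.2 and 127 CPM in cells like intermediate progenitors, a ratio of 1.12 (0.72 to 1.53), and at 162 and 202 CPM in newborn neuron-like cells, a ratio of 0.41 (0.30 to 0.53). In layer 6-like cells Cdh4 was at 24.7 and 32.5 CPM, a ratio of 0.47 (-0.11 to 1.06). Pcdh9 took the opposite direction in newborn neuron-like cells, at 79.4 and 25.2 CPM (-1.56, -1.80 to -1.32), and was at 91.6 CPM in upper-layer-like cells of both libraries (0.18, 0.06 to 0.29). Cdh11 was at 10.9 and 3.07 CPM in newborn neuron-like cells (-1.73, -2.44 to -1.05) and at 18.2 and 7.77 CPM in upper-layer-like cells (-1.05, -1.41 to -0.70). In newborn neuron-like cells the 12 radial glia or astrocyte markers summed to 276 CPM in WT and 125 CPM in cKO, the 8 intermediate progenitor markers to 319 and 216 CPM and the 10 striatal markers to 40.7 and 20.8 CPM, and their part in the result was not tested.

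**Figure D4:**
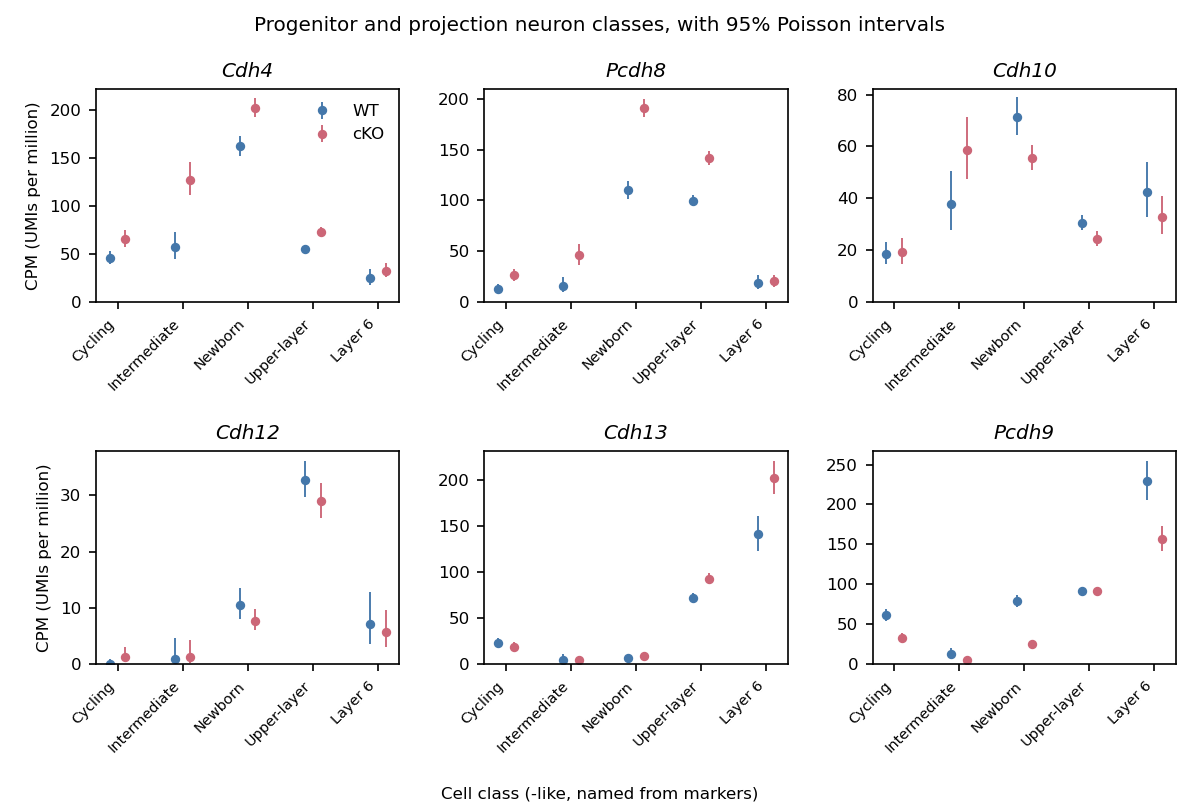
CPM (vertical axes, linear, from 0) of Cdh4, Pcdh8, Cdh10, Cdh12, Cdh13 and Pcdh9 in cycling progenitor-like, intermediate progenitor-like, newborn, upper-layer and layer 6 neuron-like cells (horizontal axis) of the WT and cKO libraries; bars are 95% Poisson intervals. In newborn neuron-like cells Pcdh8 is at 110 and 191 CPM and Pcdh9 at 79.4 and 25.2 CPM.

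Over all projection neuron-like cells, 3 of 26 members passed 2-fold (11.5%), against 20.3% of all genes. Cdh15 had 103 UMIs in WT and 26 in cKO cells, or 4.35 and 0.935 CPM, a ratio of -2.05 (-2.73 to -1.42). Cdh24, of type II, had 35 and 92 UMIs, or 1.48 and 3.31 CPM, a ratio of 1.33 (0.75 to 1.93), of which 7 and 51 UMIs lay in newborn neuron-like cells. Cdh6 had 17 and 40 UMIs, a ratio of 1.17 (0.32 to 2.08), with overlapping intervals of 0.717 and 1.44 CPM. These were 3 low genes, and the members with higher levels in this class lay within 2-fold: Cdh2 was at -0.07 (290 and 247 CPM), Pcdh8 at 0.70, Cdh4 at 0.64 (71.5 and 99.6 CPM) and Pcdh7 at -0.84 (75.8 and 37.8 CPM). The makeup of this class differed between the libraries, with 964 newborn and 1145 upper-layer-like cells in WT against 1269 and 917 in cKO. Its part in these values was not tested. With clusters weighted alike Cdh4 stood at 0.58, Pcdh7 at -0.73 and Pcdh8 at 0.67. Within newborn neuron-like cells Pcdh7 was at -0.70 (-0.98 to -0.42), and within upper-layer-like cells at -0.78 (-0.93 to -0.64).

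Striatal neuron-like cells (475 WT and 368 cKO) had 6 of 15 members past 2-fold (40.0%), against 16.9% of all genes. With 2 higher and 4 lower in cKO cells, they stood beside 5.81% and 11.1% of all genes. This count ran from 0 to 7 over the other settings: it was 0 with the stricter filter on cells, where none of the 6 had a value, 2 with at least 200 UMIs required, and 3 without doublet removal, at resolution 2 or with classes from single-cell marker scores. Pcdh11x had 192 UMIs in WT and 45 in cKO cells, or 61.6 and 15.7 CPM, a ratio of -1.92 (-2.42 to -1.44). Its share of thinned cells with a UMI was 10.7% in WT and 2.31% in cKO (23.8% and 8.70% without thinning), with 0 of 56 and 0 of 33 microglia-like cells, which by the same limit of 3 counts allow shares of up to 5.36% and 9.09%. Cdh11 had 82 and 22 UMIs, or 26.3 and 7.67 CPM, a ratio of -1.72 (-2.47 to -1.03). Pcdh9 had 118 and 47 UMIs, or 37.8 and 16.4 CPM, a ratio of -1.15 (-1.67 to -0.66). Pcdh1 was lower as well, with 38 and 14 UMIs, or 12.2 and 4.88 CPM, a ratio of -1.27 (-2.27 to -0.35). In the other direction, Pcdh19 had 78 and 162 UMIs, or 25.0 and 56.5 CPM, a ratio of 1.23 (0.83 to 1.64), and Cdh13 had 230 and 413 UMIs, or 73.7 and 144 CPM, a ratio of 1.02 (0.78 to 1.26). Thinned cells with a Cdh13 UMI made up 11% of the WT and 20.5% of the cKO striatal neuron-like class, against 1.79% and 6.06% for microglia-like cells (24.0% and 44.3% against 2.82% and 8.33% without thinning). The 12 radial glia or astrocyte markers summed to 146 CPM in WT and 28.6 CPM in cKO striatal neuron-like cells, the 7 MGE markers to 108 and 44.6 CPM and the 6 layer 6 markers to 577 and 371 CPM, and their part in the result was not tested. All 6 stayed past 2-fold with clusters weighted alike, but over all settings that gave a value Pcdh9 was past it in 9 of 14 (nearest the median at -0.74), Pcdh19 in 11 of 15 (0.58) and Cdh13 in 9 of 15 (0.60).

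GABAergic interneuron-like cells (998 WT and 897 cKO) had 4 of 18 members past 2-fold (22.2%), against 17.4% of all genes. Of these 3 were higher and 1 lower, next to 5.17% and 12.3% of all genes. Pcdh19 had 105 UMIs in WT and 245 in cKO cells, or 21.5 and 48.6 CPM, a ratio of 1.18 (0.85 to 1.52). Cdh13 had 167 and 386 UMIs, or 34.3 and 76.5 CPM, a ratio of 1.17 (0.90 to 1.44). Cdh9, a type II cadherin known for synapse specificity, had 16 and 59 UMIs, or 3.28 and 11.7 CPM, a ratio of 1.84 (1.02 to 2.74). These 3 genes were carried mainly by the interneuron-like cells with markers of the medial ganglionic eminence (MGE), which made up 215 of the WT and 348 of the cKO cells of the class. Within MGE-like cells the ratios were 0.79 for Pcdh19 (49.5 and 85.6 CPM), 0.66 for Cdh13 (96.1 and 152 CPM) and 1.19 for Cdh9 (10.9 and 24.9 CPM). With clusters weighted alike they were 0.55, 0.67 and 0.97, all within 2-fold. The MGE-like cells joined a cluster of 190 WT and 335 cKO cells with a cluster of 25 and 13 cells led by Npy, so their makeup differed as well. The 7 MGE markers summed to 12308 CPM in WT and 5910 CPM in cKO MGE-like cells and the 10 striatal markers to 143 and 35.0 CPM. Over the whole GABAergic class the 12 radial glia or astrocyte markers summed to 180 and 89.0 CPM, the 6 layer 6 markers to 151 and 74.9 CPM and the striatal markers to 64.4 and 32.3 CPM. The part of these in the results was not tested. Pcdh11x was lower in cKO cells, with 92 and 44 UMIs, or 18.9 and 8.72 CPM, a ratio of -1.11 (-1.66 to -0.57), and stood at -2.02 (-2.70 to -1.37) within MGE-like cells, at 49.5 and 12.2 CPM.

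Among glial classes, radial glia- or astrocyte-like cells (677 WT and 515 cKO) had 1 of 16 members past 2-fold (6.25%), against 12.7% of all genes. This was Cdh11, with 209 and 73 UMIs, or 42.7 and 16.2 CPM, a ratio of -1.34 (-1.75 to -0.95). Its share of thinned cells was 7.91% in WT and 2.23% in cKO, against 1 of 56 (1.79%) and 0 of 33 microglia-like cells (23.3% and 12.4%, against 2.82% and 0%, without thinning). Cdh10 was at 47.0 and 22.9 CPM there, a ratio of -0.99 (-1.33 to -0.64). The makeup of this class differed as well, since a cluster led by genes that include Aqp4 and Aldh1l1 held 332 of the WT and 170 of the cKO cells and a second cluster 308 in each library. Cdh10 was at 70.2 and 32.8 CPM in the first and at 25.1 and 17.5 CPM in the second, and with clusters weighted alike the ratio was -0.79 for Cdh10 and -1.22 for Cdh11. OPC-like cells (324 WT and 184 cKO) likewise had 1 of 14 (7.14%), against 13.7% of all genes. It was Cdh10, with 95 and 27 UMIs, or 53.9 and 22.4 CPM, a ratio of -1.25 (-1.93 to -0.62). The OPC-dominant protocadherins lay within 2-fold, at -0.66 (-0.91 to -0.41) for Pcdh15, -0.74 (-1.04 to -0.45) for Pcdh11x and -0.05 (-0.31 to 0.22) for Pcdh17. With clusters weighted alike these were at -0.49, -0.59 and 0.10, and Cdh10 at -1.16. The radial glia or astrocyte markers summed to 5482 CPM in WT and 2123 CPM in cKO OPC-like cells. In the same cells the 8 OPC markers summed to 5776.5 and 3849 CPM and the 8 intermediate progenitor markers to 150 and 294 CPM. In radial glia- or astrocyte-like cells the radial glia or astrocyte markers summed to 27943 and 19070 CPM and the OPC markers to 563 and 207 CPM. The part of these lists in these results was not tested. Cajal-Retzius-like cells had 0 of 6 members past 2-fold, against 489 of 6110 genes (8.0%).

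In both vascular classes the member past 2-fold was Pcdh12. Endothelial-like cells (126 WT and 61 cKO) had 1 of 9 (11.1%), against 18.4% of all genes, with 176 UMIs of Pcdh12 in WT and 19 in cKO cells, or 69.0 CPM (59.2 to 80.0) and 17.6 CPM (10.6 to 27.5), a ratio of -1.91 (-2.68 to -1.23). The level was lower in each of the 3 endothelial-like clusters, at 79.2 and 20.2 CPM in the largest, of 87 WT and 49 cKO cells. The others held few cells. The first of them, of 32 WT and 7 cKO cells, held 103 of the 176 WT and 6 of the 19 cKO UMIs. The second held 8 and 1 UMIs in 7 and 5 cells. Cells of the first were 7.27 times as deep as the median cell, so that they weighed more in the class levels than their number. Their mean marker score was higher for another class (2.94) than for endothelial cells (2.65), so this cluster was mixed. Thinned endothelial-like cells with a Pcdh12 UMI were 13.6% of 118 in WT and 3.77% of 53 in cKO (54.8% and 21.3% without thinning), and 0 of 56 and 0 of 33 microglia-like cells had one. Mural-like cells (93 WT and 40 cKO) had 1 of 7 (14.3%), against 16.2% of all genes, with 94 and 5 UMIs of Pcdh12, or 60.9 and 8.86 CPM, a ratio of -2.78 (-4.44 to -1.51). Of these UMIs 92 and 3 lay in the cluster that also carried endothelial genes, and the cluster of 37 WT and 28 cKO mural-like cells without them had 2 in each library. Cdh5 in the same endothelial-like cells was higher in the cKO library, with a ratio of 0.65 (0.49 to 0.80), as was Pcdh1, with 0.67 (0.44 to 0.91). The 8 endothelial markers summed to 8356 CPM in WT and 9156 CPM in cKO endothelial-like cells. Other lists in these cells were further apart, with the 12 radial glia or astrocyte markers at 1324 and 2559 CPM, the 8 newborn neuron markers at 394 and 138 CPM and the 5 granulocyte markers at 567 and 0.926 CPM. In mural-like cells the endothelial markers summed to 7400 and 5565 CPM and the granulocyte markers to 0.648 and 1104 CPM, with the 8 cycling markers at 79.0 and 487 CPM, the newborn neuron markers at 405 and 124 CPM and the 7 MGE markers at 84.9 and 209 CPM. The part of these lists in the Pcdh12 values was not tested. Pcdh12 lies 2.53 Mb from Tmem173 on chromosome 18 (GRCm38, GENCODE M21), with Pcdh1 at 2.45 Mb and Cdh2 at 18.9 Mb, and whether the sequence around the engineered allele differed between the libraries was not tested.

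Of the 14 members tested in at least 6 classes, 2 lay below the median gene in every class tested (14.3%) and 0 above it in every class, against 19.3% and 20.2% of 7793 genes, so that a lean to one side was no more frequent among members than among other genes. Cdh11 lay below the median gene in 8 of 8 classes tested, with an interval wholly below it in 5, and Pcdh9 in 6 of 6, with the interval below in 6. Pcdh11x was below it in 6 of 7, the exception being Cajal-Retzius-like cells at 0.12, and Pcdh7 in 5 of 6. Cdh4 was above the median gene in 6 of 7, with the interval above in 5 and striatal neuron-like cells at -0.40 as the exception. These classes come from the same pair of libraries and are not replicates. The low value of Cdh11 was not found at every level of detail, since MGE-like interneurons had 18.2 CPM in WT and 20.7 CPM in cKO, a ratio of 0.18 (-0.54 to 0.94). Nor was that of Pcdh9, which lay at 0.18 (0.06 to 0.29) in upper-layer-like cells and at -0.05 (-0.11 to 0.02) over all kept cells.

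Genes that act with cadherins were followed by lists of catenins, the WAVE complex, related cadherin genes and cleaving enzymes. In 10 classes with microglia-like cells, 276 pairs of a partner gene and a class were tested and 18 passed (9 higher and 9 lower), or 6.52%, against 15.6% of all pairs. The catenins and junction partners, which tie cadherins to actin, had 4 higher and 5 lower of 98 pairs, with a median centred log2 ratio of -0.01. Jup (plakoglobin, also named gamma-catenin) was lower in cKO cells of 3 classes. It had 479 and 135 UMIs in projection neuron-like cells, or 20.2 and 4.86 CPM, a ratio of -1.89 (-2.18 to -1.61), with -2.02 in GABAergic interneuron-like and -1.41 in striatal neuron-like cells. Ctnna1 (alpha-E-catenin) was at 19.9 and 8.13 CPM in GABAergic interneuron-like cells, a ratio of -1.28, and Ctnnd1 (p120-catenin) at 46.0 and 20 CPM in OPC-like cells, a ratio of -1.19. In the same OPC-like cells the related Arvcf was at 28.4 and 63.2 CPM, a ratio of 1.17, and Pkp4 at 16.5 and 38.2 CPM, a ratio of 1.23. Pvrl3, a nectin, was at 86.9 and 175 CPM in striatal neuron-like cells, a ratio of 1.06, and at 25.9 and 53.2 CPM in mural-like cells, a ratio of 1.04.

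The lists that follow are read against the 5.17% of pairs that were higher and the 10.6% that were lower over all genes. Those shares leave out microglia-like cells, which the lists include where measured. The WAVE complex, which promotes actin branching and is bound by several protocadherins, had 3 of 78 pairs higher and 0 lower: Wasf2 in endothelial-like cells at 1.07 (184 and 369 CPM), Wasf3 in GABAergic interneuron-like cells at 1.03 and Abi1 in Cajal-Retzius-like cells at 1.08. Its median over the 78 pairs was 0.18. Of 35 pairs of a gene for cadherin cleavage and a class, 1 was higher and 2 were lower. Adam10, a protease that cuts cadherins at the cell surface, was at -1.04 in GABAergic interneuron-like cells (45.1 and 21.8 CPM) and at -1.08 in striatal neuron-like cells (29.8 and 13.6 CPM). Other cadherin superfamily genes (Fat, Dchs, Celsr and Clstn) had 1 higher and 2 lower of 65 pairs. Clstn3 stood at -1.17 in progenitor-like cells, while Fat1 at 1.04 in mural-like and Clstn2 at -1.04 in striatal neuron-like cells had overlapping CPM intervals.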

How the data were processed

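The authors sequenced 10x Genomics libraries and deposited, for each of the 2 libraries, a matrix of whole-number UMI counts per gene and barcode, not normalized. The submitters' processing notes name STAR, Cell Ranger 2, Seurat and mm9, while the matrix header names Cell Ranger 3.0.1. The deposited counts held 10715 WT and 9198 cKO barcodes, with 69554624 and 67448785 UMIs.

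Cells with at least 500 genes and at most 10% mitochondrial UMIs were kept; 35.9% of WT and 32.9% of cKO barcodes were over that limit. Cells with a doublet score over 0.25 (Scrublet within scanpy 1.11.5) were removed, 2.44% and 1.74%; the automatic threshold would have removed 0% in cKO. Both libraries were clustered together in Python 3.11.15 (2000 variable genes, 30 components, 15 neighbours, Leiden 0.10.2 at resolution 1), each gene being scaled within its library, with all members, partner genes and sex-linked genes left out. Some clusters of at least 100 cells were split again at 0.5, which gave 45 clusters in the end. These were clusters whose leading genes went against their best name, or whose best name was endothelial, mural or fibroblast. A cluster was named from at least 3 detected markers; the naming and doublet rules were adjusted after the clusters, but not the member values, were seen. Members, gene lists and markers were chosen with earlier results of these data known.

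UMIs were summed per class and library, with exact Poisson intervals for CPM, exact conditional binomial intervals for ratios and Clopper-Pearson intervals for shares (scipy 1.17.1), all at 95%; a level or share of 0 was given a limit of 3 counts. No test of genotype was made. Described members had at least 200 UMIs over both libraries, and in each class up to 5 members a direction, at least 2-fold from the median gene with CPM intervals that did not overlap, were named; Cdh6, whose intervals overlapped, was named after its values were seen; partner genes were named where past 2-fold, except 1 result that is not reported here. TMM factors came from edgeR 4.0.16 in R 4.3.3. The scripts were tested on simulated data. Alternatives covered cell filters, doublets, clustering, class naming, scaling, minimum counts, centring and thinning.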

Additional observations from a re-analysis of the deposited data

Results flagged for a closer look

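A few members lay on opposite sides of the median gene in different classes, by at least 0.5 on the centred log2 scale of cKO over WT and with the counting interval wholly on that side each time. With 1 library a genotype, none of these differences between classes was tested. The same held for 743 of the 11528 genes measured in at least 2 classes (6.45%), next to 4 of 22 members (18.2%), and for 7.02% of the genes measured in at least 6 classes, next to 3 of 14 members (21.4%), which is a description with no test.

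Pcdh19 was higher in cKO GABAergic interneuron-like (1.18), striatal neuron-like (1.23), projection neuron-like (0.57) and endothelial-like cells (0.54), and lower in OPC-like cells (-0.92), where its level was 36.3 CPM in WT and 19.1 CPM in cKO. Pcdh17 was higher in GABAergic interneuron-like cells (0.70, at 40.2 and 64.8 CPM). It was lower in radial glia- or astrocyte-like cells (-0.65, at 80.0 and 49.3 CPM) and striatal neuron-like cells (-0.66, at 122 and 74.3 CPM). With clusters weighted alike these Pcdh17 values were 0.498, -0.442 and -0.698, so that its higher side was within 0.5. Cdh10 was higher in progenitor-like cells (0.54, at 22.8 and 32.4 CPM) and lower in GABAergic interneuron-like (-0.56), OPC-like (-1.25) and radial glia- or astrocyte-like cells (-0.99). With clusters weighted alike these Cdh10 values were 0.14, -0.80, -1.16 and -0.79, so that its higher side was within 0.5. Cdh10 was at 17.3 and 18.5 CPM in the main cycling cluster. It was at 81.1 and 86.6 CPM in an intermediate progenitor-like cluster that held 68 WT and 121 cKO cells. The part of the makeup of the class in the Cdh10 value was not tested. Pcdh1 was higher in OPC-like (0.82) and endothelial-like cells (0.67), and lower in projection neuron-like (-0.83, at 10.1 and 5.07 CPM) and striatal neuron-like cells (-1.27). With clusters weighted alike, Pcdh1 was at 0.98 in OPC-like and -1.30 in striatal neuron-like cells. In that setting Pcdh19 was at 1.26 in striatal neuron-like and -0.80 in OPC-like cells.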

How the results depend on the processing

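No paired analysis was possible because each genotype had 1 library and so only replicate number 1, and for the same reason no library could be left out. The count of pairs of a member and a class past 2-fold, 23 of 128 as reported, was 8 of 73 with at least 200 UMIs required, where fewer pairs were tested. Among the other settings the lowest count was 16 of 67 with the stricter filter on cells, which kept 1646 WT and 1323 cKO cells, and the highest 33 of 156 with at least 20 UMIs. The balance of 8 higher and 15 lower moved to 3 and 18 without scaling of genes within each library, to 3 and 14 with classes from single-cell marker scores, to 7 and 19 without centring, and to 5 and 16 with clusters weighted alike, the last chosen after the data were seen. None of the 23 pairs changed direction in a setting that gave it a value. The stricter filter gave a value for 5 of the 23, all past 2-fold, so that most of its 16 were other pairs, and a minimum of 200 UMIs for 8, of which 7 were past it. The remaining settings gave values for 21 or more of the 23, of which 14 to 23 were past it. Pcdh15 in progenitor-like cells had too few UMIs for a value without the cluster that carried OPC genes, and was past 2-fold in 7 of 11 settings. Cdh13 in GABAergic interneuron-like cells was past 2-fold in 9 of 16 settings, with a range of 0.36 to 1.24, and in striatal neuron-like cells in 9 of 15. Pcdh9 was past it in 11 of 16 settings in progenitor-like and 9 of 14 in striatal neuron-like cells, and Pcdh19 in 10 of 15 in GABAergic interneuron-like and 11 of 15 in striatal neuron-like cells. The count in a class ran from 1 to 6 in GABAergic interneuron-like, 0 to 6 in projection neuron-like, 1 to 3 in radial glia- or astrocyte-like, 0 to 2 in OPC-like, 0 to 3 in endothelial-like, 0 to 4 in mural-like and 0 to 1 in Cajal-Retzius-like cells. Of the levels of the 26 members in their leading classes, 34 of 52 moved beyond the counting interval without mitochondrial, ribosomal and haemoglobin genes, where each total is smaller and each CPM higher, 28 of 38 with the stricter filter on cells, and 3 to 13 of 52 in the other settings. The leading class as reported was kept by 16 of 26 members in WT and 15 in cKO with the stricter filter on cells, and by 21 to 26 in each library in the other settings. The libraries shared a leading class for 17 to 22 members, and 18 members reached 5% of cells in some class in both libraries after thinning to 2000 UMIs, 15 at 1000 and 22 without thinning. Partner genes past 2-fold numbered 17 with TMM scaling in place of 18.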
